A study of Homo sapiens with 18 samples.

Results

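The smooth muscle contractile genes are 10 genes, chosen by name, whose products build, anchor or regulate the actin and myosin filaments of smooth muscle: CNN1, TAGLN, MYH11, MYL9, LMOD1, SMTN, CALD1, MYLK, SYNPO2 and DES. Each symbol matched 1 Ensembl gene identifier of the 61487 in the count table, of which 40522 had at least 1 count. 9 of the 10 passed the filter on low counts, which left 18544 genes tested. DES did not pass it, and its counts are given without a test.

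RNA was measured in MSC-hTERT, an immortalized line of human mesenchymal stem cells, in 6 groups of 3 libraries numbered 1 to 3. All 6 groups share the line and its growth medium with serum and FGF-2, and differ in the construct they are labelled with. The pMSCV group carries the name of a retroviral vector and is taken here as the control. The SRF group is labelled with serum response factor itself, and the SRF-RELA, SRF-PDGFRB, SRF-ICA1L and SRF-FOXO1 groups with fusions of SRF to a part of another gene. The promoter that drives the constructs, the number of clones behind each line and whether the 3 libraries of a group came from separate cultures are not given in the sources used here, so the p-values measure only the spread between these libraries.

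Smooth muscle contracts when the myosin light chain kinase, switched on by calcium, phosphorylates the regulatory light chain of myosin, and proteins on the thin filament tune the sliding that follows. Many genes of this apparatus carry CArG boxes, the short AT-rich elements that SRF binds, and are driven when SRF is joined by cofactors of the myocardin family. The same factor drives growth-responsive genes such as FOS when joined by cofactors of the ternary complex family, so the contractile genes are widely used as a readout of what SRF is doing in a mesenchymal cell.

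The promoter table of RefSeq (build GRCh38.p14) holds windows of 300 bases, from 250 bases before to 50 bases after a transcript start, for 6 of the 10 genes, 14 windows in all. TAGLN, MYH11, MYL9 and DES have no window in it. An exact CArG box, searched by its consensus on both strands, was in 2 of the 14 windows, 1 of MYLK and 1 of SMTN, and in 454 of all 35116 windows (1.293%). With at most 1 mismatch a box was in 7 of the 14 windows and in 18.86% of all windows. Those shown are printed 5′ to 3′ on the strand of the gene with each match in capitals: both exact matches, the window of LMOD1, the gene with the largest share of its spread between groups, and that of CNN1, which held no match. A match is a description of letters and no measured binding site. The only window of MYLK ends at chr3:123620798. The gene runs on the minus strand from chr3:123884331, and that end has no window, so it was not searched.
LMOD1, chr1:201946499-201946798, minus strand, boxes of 1 mismatch starting 185 and 160 bases before the transcript start: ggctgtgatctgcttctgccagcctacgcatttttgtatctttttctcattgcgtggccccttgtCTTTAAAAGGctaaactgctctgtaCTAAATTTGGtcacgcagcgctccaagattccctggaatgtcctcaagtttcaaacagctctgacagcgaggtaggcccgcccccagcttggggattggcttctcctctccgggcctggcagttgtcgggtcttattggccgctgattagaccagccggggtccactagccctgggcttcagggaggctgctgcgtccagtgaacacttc
MYLK, chr3:123620499-123620798, minus strand, exact box starting 94 bases before a transcript start that lies inside the gene: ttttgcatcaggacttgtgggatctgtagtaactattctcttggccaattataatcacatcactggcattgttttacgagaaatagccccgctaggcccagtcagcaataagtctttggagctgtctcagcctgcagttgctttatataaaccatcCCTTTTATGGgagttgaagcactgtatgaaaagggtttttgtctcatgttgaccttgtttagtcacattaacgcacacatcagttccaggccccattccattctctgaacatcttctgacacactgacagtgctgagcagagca
SMTN, chr22:31084746-31085045, plus strand, exact box starting 44 bases before a transcript start that lies inside the gene: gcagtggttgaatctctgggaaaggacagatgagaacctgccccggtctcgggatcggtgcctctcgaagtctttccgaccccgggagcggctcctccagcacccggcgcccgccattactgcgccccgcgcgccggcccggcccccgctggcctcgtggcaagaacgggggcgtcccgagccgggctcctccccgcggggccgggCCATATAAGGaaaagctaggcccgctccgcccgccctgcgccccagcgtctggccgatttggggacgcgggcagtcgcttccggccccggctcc
CNN1, chr19:11538601-11538900, plus strand, no match: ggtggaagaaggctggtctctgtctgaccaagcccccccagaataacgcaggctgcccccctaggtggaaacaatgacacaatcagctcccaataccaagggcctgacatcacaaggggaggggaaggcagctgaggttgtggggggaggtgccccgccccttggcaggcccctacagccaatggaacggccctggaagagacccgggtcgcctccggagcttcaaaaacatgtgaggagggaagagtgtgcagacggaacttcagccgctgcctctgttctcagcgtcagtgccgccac

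The libraries held 19362319 to 29806771 counts. The labelled cell type was checked against 11 markers of mesenchymal stem cells, and all 11 were over 3 counts in these libraries, with COL1A2 at 7108 CPM or more (CPM, counts scaled to a library total of 1e6). The skeletal muscle regulators MYOD1, MYOG, MYF5, MYF6 and PAX7 and the cardiac genes MYH6, MYH7, TNNT2 and NKX2-5 never exceeded 3 counts. Other striated muscle markers were detected. TTN was at 25.3 to 71.3 CPM, ACTA1 at 0 to 114 CPM and ACTC1 at 0 to 115 CPM over the libraries. SRF was at 57.3 to 64.4 CPM in pMSCV, 678 to 1122 CPM in the SRF group and 151 to 337 CPM in the 4 fusion groups. FOXO1 was at 14.4, 7.63 and 7.35 CPM in replicates 1, 2 and 3 labelled SRF-FOXO1 and at 17.5, 10.9 and 9.45 CPM in those of pMSCV, so FOXO1 counts do not check that label, and the group is called below the libraries labelled SRF-FOXO1. The serum-induced gene FOS was at 12.1 to 34.4 CPM in the 6 libraries numbered 2 and at 381 to 1114 CPM in the other 12. Because libraries with the same number deviated together, a second fit, blocked on the number, stands beside the unblocked one where the call differs, except for SRF-FOXO1 against SRF and the test over the 6 groups, since the deviations of replicate 1 of SRF and of SRF-FOXO1 correlated by only 0.0875. A gene is called when its adjusted p from edgeR is under 0.05.

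Of the 9 tested genes, 7 were at their highest group mean in the libraries labelled SRF-FOXO1 or SRF-ICA1L, and the vector was the lowest group for CNN1, TAGLN, MYL9 and LMOD1. Against pMSCV without the block, 2 of 9 passed in the libraries labelled SRF-FOXO1 (LMOD1 and SYNPO2), where 0.928% of all tested genes were called. In SRF-ICA1L 1 of 9 passed (LMOD1), against 0.469% of all genes. None of the 9 passed in SRF (0.027% of all genes), SRF-PDGFRB (0.0324%) or SRF-RELA (0.183%). An unadjusted p under 0.05 was reached by 8 of 9 in the libraries labelled SRF-FOXO1 (15.1% of all tested genes), 7 in SRF-ICA1L (10.8%), 6 in SRF-RELA (3.83%), 1 in SRF (5.38%) and 0 in SRF-PDGFRB (2.1%). By the DESeq2 Wald test 1 contractile gene passed in SRF (0.131% of all genes with an adjusted p), 0 in SRF-PDGFRB (0.0776%) and 2 in SRF-RELA (0.511%).

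With the replicate block, 7 of 9 genes rose in the libraries labelled SRF-FOXO1 (7.03% of all tested genes were called), 6 in SRF-ICA1L (4.66%), 4 in SRF-RELA (0.971%), 1 in SRF (0.243%) and 0 in SRF-PDGFRB (0.178%). Every one of these calls was an increase. In SRF-PDGFRB 5 of 9 genes had an unadjusted p under 0.05 in this fit, against 5.12% of all tested genes. The 5 comparisons share the 3 pMSCV libraries. Summed markers of other cell types were higher in some of these groups. Endothelial markers (6 genes, CLDN5 never over 3 counts) summed to 73.7 to 94.1 CPM in pMSCV, 127 to 351 CPM in the libraries labelled SRF-FOXO1, 131 to 393 CPM in SRF-ICA1L and 119.6 to 327 CPM in SRF-RELA, with TEK the main part. Epithelial markers (4 genes) summed to 50.9 to 91.1 CPM in pMSCV and to 93.5 to 226 CPM, 98.6 to 232 CPM and 75.2 to 153 CPM in these 3 fusions, carried by KRT8 and KRT18, while EPCAM and CDH1 stayed at or below 1.14 CPM. Skeletal muscle markers (16 genes, 6 of them never over 3 counts) summed to 60.2 to 75.4 CPM in pMSCV. They summed to 48.4 to 196 CPM in the libraries labelled SRF-FOXO1 and 50.3 to 68.3 CPM in SRF-ICA1L. SRF-RELA, at 90.3 to 194 CPM, and SRF-PDGFRB, at 77.9 to 84.5 CPM, lay wholly above pMSCV. Heart muscle markers (11 genes, 6 of them never over 3 counts) summed to 2.20 to 4.26 CPM in pMSCV. The libraries labelled SRF-FOXO1, at 4.86 to 119 CPM, and SRF-RELA, at 5.02 to 46.9 CPM, lay wholly above it. SRF-ICA1L, at 2.89 to 5.09 CPM, and SRF-PDGFRB, at 2.65 to 6.97 CPM, overlapped it. The part of these markers in the level of the contractile genes was not tested. In these bulk samples, more expressing cells and more RNA per cell cannot be told apart.

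The median log2 fold change of the 9 genes against pMSCV, unblocked, was 2.24 in the libraries labelled SRF-FOXO1, 1.04 in SRF-ICA1L, 1.06 in SRF-RELA, 0.03 in SRF and 0.43 in SRF-PDGFRB. Over all tested genes the same median lay between -0.01 and 0.01 in the 5 comparisons, near 0 as the scaling of the libraries (TMM) tends to set it. The 3 libraries of a construct lay wholly above the 3 of pMSCV for 7 of 9 genes in the libraries labelled SRF-FOXO1 (6.41% of all tested genes), 6 in SRF-ICA1L (5.69%), 5 in SRF-RELA (5.2%), 1 in SRF (4.01%) and 0 in SRF-PDGFRB (5.12%).

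**Figure D1:**
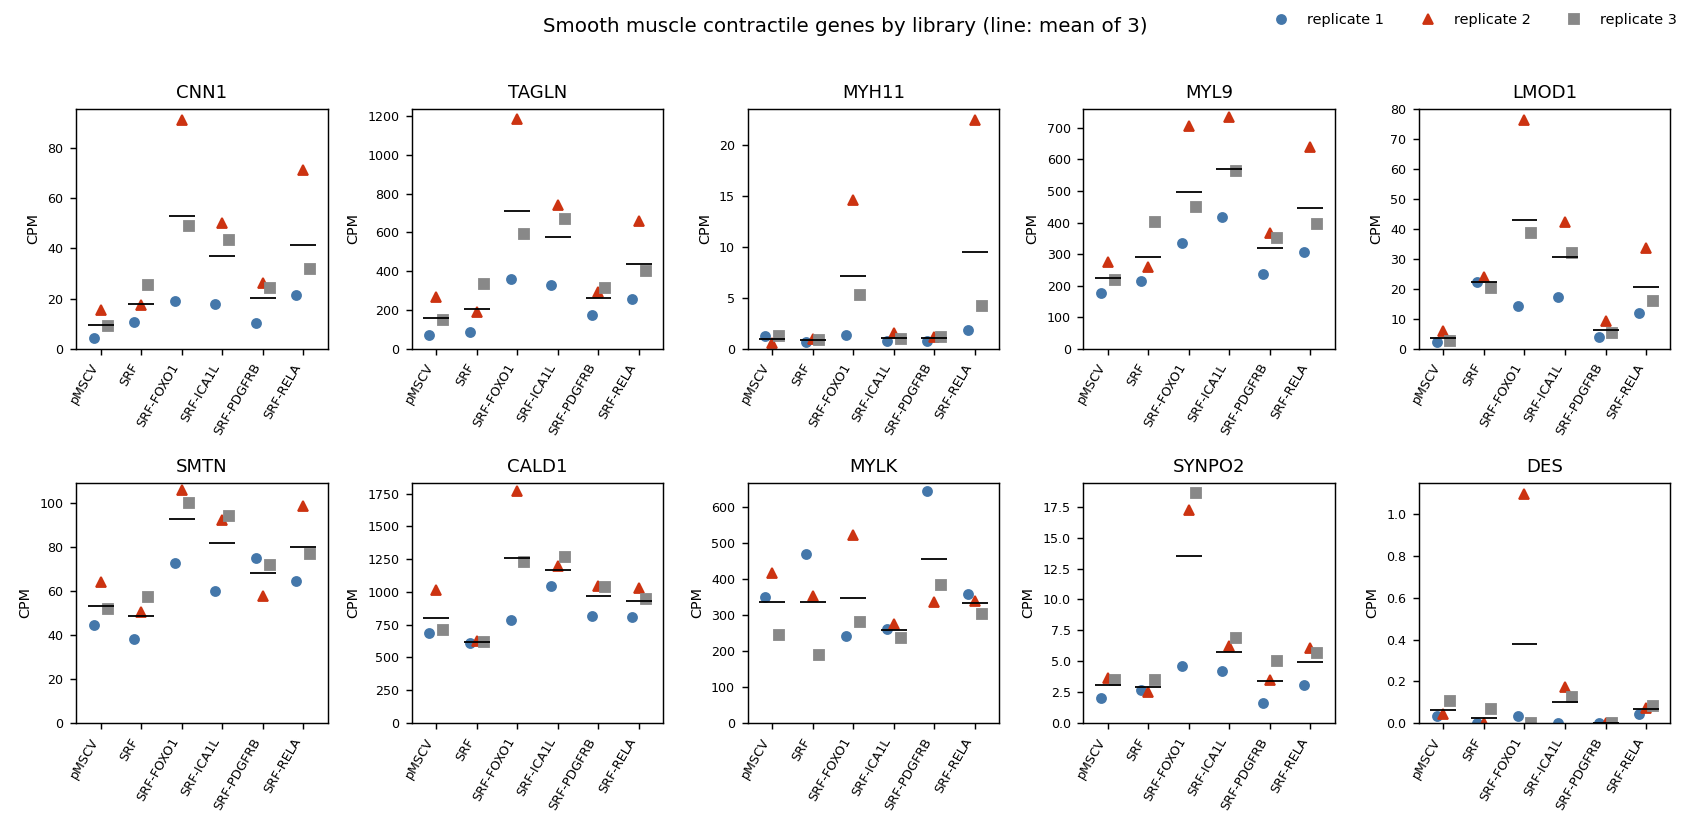
CPM of the 10 genes (vertical axes, linear from 0, each panel on its own scale) in the 18 libraries, by group; circles, triangles and squares are replicates 1, 2 and 3 and the line is the mean of 3. CNN1, TAGLN, MYL9 and LMOD1 are lowest on average in pMSCV. MYH11 is at most at 1.53 CPM in 4 groups and up to 14.6 and 22.5 CPM in SRF-FOXO1 and SRF-RELA. MYLK overlaps pMSCV in every construct.

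Calponin 1 (CNN1, ENSG00000130176, chr19:11538717-11550323 in GRCh38) binds actin and slows the myosin motor. It was at 4.21, 15.5 and 9.04 CPM in replicates 1, 2 and 3 of pMSCV. The libraries labelled SRF-FOXO1 were at 18.96, 91.3 and 48.9 CPM, with 17.7, 50.04 and 43.2 CPM in SRF-ICA1L and 21.3, 71.1 and 31.9 CPM in SRF-RELA. The lowest library of each of these 3 fusion groups was above the highest pMSCV library. The log2 fold change was 2.59 (edgeR adjusted p 0.102, SE 0.69) in the libraries labelled SRF-FOXO1, 2.08 (adjusted p 0.249, SE 0.68) in SRF-ICA1L and 2.19 (adjusted p 0.563, SE 0.68) in SRF-RELA. With the block the adjusted p-values from edgeR were 0.000179, 0.000674 and 0.00100, and CNN1 stayed called in each of the 6 fits per comparison that left out 1 library. In SRF CNN1 was at 10.5, 17.5 and 25.5 CPM and in SRF-PDGFRB at 10.2, 26.2 and 24.1 CPM, both overlapping pMSCV and not called in either fit.

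Transgelin (TAGLN, ENSG00000149591, chr11:117199321-117204782), a calponin relative that bundles actin and an early marker of smooth muscle differentiation, was the most abundant of the 10 per base in the libraries labelled SRF-FOXO1. Its vector libraries were at 72.2, 264 and 146 CPM, those labelled SRF-FOXO1 at 359.5, 1182 and 592 CPM, SRF-ICA1L at 327, 740.5 and 668 CPM and SRF-RELA at 258, 658 and 399 CPM. The first and second of these fusions did not overlap the vector, and SRF-RELA did in replicate 1. The log2 fold changes were 2.26 (edgeR adjusted p 0.109, SE 0.62), 1.97 (adjusted p 0.219, SE 0.61) and 1.52 (adjusted p 1.000, SE 0.60) without the block. With it, edgeR adjusted p-values were 0.000506, 0.00113 and 0.0146. The call in SRF-RELA was lost in 4 of 6 fits that left out 1 library, at most to 0.0981 without pMSCV replicate 3, and the other calls in 0 of 6. TAGLN shares 446 exon bases (11.4%) with PCSK7 on the opposite strand, whose reads cannot be told apart unless strand was used in counting. In SRF TAGLN was at 86.8, 191 and 336 CPM and in SRF-PDGFRB at 173, 292 and 313 CPM, and neither was called. PCSK7 stayed between 29.2 and 50.5 CPM.

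Caldesmon (CALD1, ENSG00000122786, chr7:134744252-134970728), which blocks myosin from actin and has a short form in non-muscle cells, was abundant in every group, at 684, 1015 and 706 CPM in pMSCV. The libraries labelled SRF-FOXO1 were at 784, 1774 and 1229 CPM and those of SRF-ICA1L at 1046, 1200.0 and 1264 CPM. The SRF libraries, at 607, 627 and 618 CPM, were all below the lowest pMSCV library, but that difference was not called (log2 fold change -0.34, edgeR adjusted p 0.932, SE 0.25). Against pMSCV the log2 fold change was 0.76 (SE 0.25) in the libraries labelled SRF-FOXO1 and 0.66 (SE 0.25) in SRF-ICA1L. Both were called only with the block (edgeR adjusted p 0.0263 and 0.0421). Without SRF-FOXO1 replicate 2 the first had an edgeR adjusted p of 0.148 and was lost in 4 of 6 fits, and the second was lost in all 6, at most to 0.201 without pMSCV replicate 3.

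Smoothelin (SMTN, ENSG00000183963, chr22:31064105-31104757) binds actin stress fibres and is a marker of contractile smooth muscle. Its pMSCV libraries were at 44.4, 64.1 and 51.9 CPM and its SRF libraries at 38.2, 50.5 and 57.6 CPM. The libraries labelled SRF-FOXO1 were at 72.8, 106 and 100.01 CPM, with 60.03, 92.3 and 94.03 CPM in SRF-ICA1L and 64.5, 98.7 and 76.9 CPM in SRF-RELA. The libraries labelled SRF-FOXO1 and those of SRF-RELA lay above both pMSCV and SRF. With the block SMTN rose against pMSCV by 0.87 (edgeR adjusted p 0.00622, SE 0.17) in the libraries labelled SRF-FOXO1 and by 0.72 (adjusted p 0.0232, SE 0.17) in SRF-ICA1L, on the log2 scale. The latter was lost in 5 of 6 fits that left out 1 library, at most to 0.125 without SRF-ICA1L replicate 2. Neither was called without the block, at edgeR adjusted p 0.0845 and 0.218. SMTN shares 357 exon bases (3.5%) with an antisense gene, AC005005.3.

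MYL9 (ENSG00000101335, chr20:36541484-36551447), the regulatory light chain that the kinase phosphorylates, had 178, 275 and 218 CPM in pMSCV. The libraries labelled SRF-FOXO1 had 337, 707 and 450.4 CPM of it, those of SRF-ICA1L 417, 734 and 564 CPM and those of SRF-RELA 305, 639 and 397 CPM. These 3 fusion groups did not overlap the vector, while SRF, at 214, 258 and 403 CPM, and SRF-PDGFRB, at 238, 368 and 352 CPM, did and were not called. The log2 fold changes without the block were 1.26 (edgeR adjusted p 0.120, SE 0.36), 1.47 (adjusted p 0.0949, SE 0.36) and 1.06 (adjusted p 0.718, SE 0.36). With the block the adjusted p-values from edgeR were 0.00270, 0.000773 and 0.0212, and the last of them was 0.168 without SRF-RELA replicate 2 and was lost in 5 of 6 such fits.

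MYH11 (ENSG00000133392, chr16:15703172-15857033) encodes the heavy chain of smooth muscle myosin, the marker held to be most specific to mature smooth muscle. It was at 0.516 to 1.53 CPM in every library of pMSCV, SRF, SRF-ICA1L and SRF-PDGFRB, or 12 to 44 counts. In the replicates labelled SRF-FOXO1 it was at 1.38, 14.6 and 5.32 CPM and in SRF-RELA at 1.82, 22.5 and 4.22 CPM, with replicate 2 highest in both. MYH11 passed the test for any difference among the 6 groups without the block (edgeR adjusted p 0.0465), in which 3 of the 9 genes and 1.67% of all tested genes were called. LMOD1 (adjusted p 0.0293) and SYNPO2 (adjusted p 0.0410) were the others.

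No single comparison of MYH11 with pMSCV was called. Its log2 fold change was 2.97 (edgeR adjusted p 0.145, SE 0.89) in the libraries labelled SRF-FOXO1 and 3.35 (adjusted p 0.294, SE 0.90) in SRF-RELA, and 0.0574 and 0.134 were the adjusted p-values with the block. Relative to the pMSCV library of the same number, MYH11 was 1.14, 28.4 and 4.39 times as high in replicates 1, 2 and 3 labelled SRF-FOXO1 and 1.51, 43.6 and 3.48 times in SRF-RELA. All 6 ratios were above 1, and the spread between numbers was wider than for CNN1. The divisor of 28.4 and 43.6, pMSCV replicate 2, held 12 counts of MYH11, against 34 and 35 in pMSCV replicates 1 and 3. MYH11 shares 765 exon bases (4.8%) with NDE1 on the opposite strand, and their reads there cannot be told apart unless strand was used in counting. NDE1 was at 15.9 to 24.2 CPM in the 18 libraries.

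MYLK (ENSG00000065534, chr3:123610049-123884331), the light chain kinase, was the 1 tested gene with no call in any comparison, with or without the block, in the full set of libraries. Its libraries ranged from 189.5 to 643 CPM, with group means from 257 ± 20.02 CPM in SRF-ICA1L to 455 ± 165 CPM in SRF-PDGFRB (SD, n = 3). The groups overlapped in every comparison with pMSCV. The highest library was replicate 1 of SRF-PDGFRB and the lowest replicate 3 of SRF, and replicate 2 was the highest in 3 of 6 groups.

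LMOD1 (ENSG00000163431, chr1:201896452-201946588) encodes leiomodin 1, which seeds actin filaments in smooth muscle. It was at 2.34, 5.97 and 2.63 CPM in pMSCV and at 22.3, 24.1 and 20.4 CPM in SRF, and was the 1 gene of the 10 for which the SRF libraries lay wholly above the vector. The libraries labelled SRF-FOXO1 were at 14.4, 76.3 and 38.5 CPM, SRF-ICA1L at 17.1, 42.2 and 31.9 CPM, SRF-RELA at 12.04, 33.6 and 15.8 CPM, and SRF-PDGFRB at 3.90, 9.41 and 5.22 CPM. SRF-PDGFRB overlapped the vector and the other 4 did not. LMOD1 rose by 3.69 (edgeR adjusted p 0.0212, SE 0.66) in the libraries labelled SRF-FOXO1 and by 3.20 (adjusted p 0.0454, SE 0.64) in SRF-ICA1L, on the log2 scale. In SRF the log2 fold change was 2.65 (edgeR adjusted p 0.429, SE 0.63) and in SRF-RELA 2.57 (adjusted p 0.208, SE 0.63).

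With the replicate block LMOD1 was called in SRF (edgeR adjusted p 0.00341) and in SRF-RELA (adjusted p 0.00143) as well, and all 4 calls held in each fit that left out 1 library. Without the block they were less stable. The call in the libraries labelled SRF-FOXO1 was lost without pMSCV replicate 1 (edgeR adjusted p 0.152), pMSCV replicate 3 (0.131) or SRF-FOXO1 replicate 2 (0.0857). The one in SRF-ICA1L was called only in the full set and without SRF-ICA1L replicate 1 (edgeR adjusted p 0.0315), and reached 0.234 without pMSCV replicate 3. LMOD1 shares 536 exon bases (13.5%) with an antisense gene, AL513217.1.

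The groups were not in the same order by LMOD1 as by SRF. The SRF group held SRF at 945 ± 236 CPM and LMOD1 at 22.3 ± 1.84 CPM (SD, n = 3), and the libraries labelled SRF-FOXO1 held SRF at 182 ± 29.96 CPM and LMOD1 at 43.1 ± 31.2 CPM. SRF-PDGFRB, with SRF at 253 ± 88.9 CPM, had LMOD1 at 6.17 ± 2.87 CPM. Reads of the construct and of the native gene are counted together under SRF. How much of SRF each fusion holds was not examined, so these CPM do not compare construct levels.

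SYNPO2 (ENSG00000172403, chr4:118850688-119061247) encodes synaptopodin 2 (myopodin), an actin-bundling protein of muscle Z-discs and dense bodies. The pMSCV libraries were at 2.05, 3.61 and 3.50 CPM and those labelled SRF-FOXO1 at 4.60, 17.3 and 18.6 CPM, without overlap. SRF-ICA1L was at 4.24, 6.22 and 6.89 CPM and also above the vector. The increase in the libraries labelled SRF-FOXO1 was 2.24 on the log2 scale (edgeR adjusted p 0.0410, SE 0.48). It was lost in 5 of 6 fits that left out 1 library, at most to 0.251 without pMSCV replicate 1, and held without SRF-FOXO1 replicate 1 (edgeR adjusted p 0.00252). With the block the adjusted p from edgeR was 0.000536 and 0 of 6 such fits lost it. In SRF-ICA1L the log2 fold change was 1.04 (SE 0.48), with an edgeR adjusted p of 0.449 without the block and 0.0517 with it.

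DES (ENSG00000175084, chr2:219418377-219426739), the intermediate filament desmin of muscle cells, was at the edge of detection. Replicate 2 of the libraries labelled SRF-FOXO1 had 28 counts (1.10 CPM), and each of the other 17 libraries had 5 counts or fewer. All 3 SRF-PDGFRB libraries had 0 counts, which allows up to 3 counts per library. Replicates 1 and 3 of the libraries labelled SRF-FOXO1 had 1 and 0 counts, so the group mean rests on 1 library. That library was also the highest of all for CNN1, TAGLN, CALD1, LMOD1 and SMTN. It held 119 CPM of summed heart muscle markers, nearly all of it ACTC1. The sum was 5.02 to 46.9 CPM in SRF-RELA and 2.20 to 6.97 CPM in pMSCV, SRF, SRF-ICA1L and SRF-PDGFRB.

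**Figure D2:**
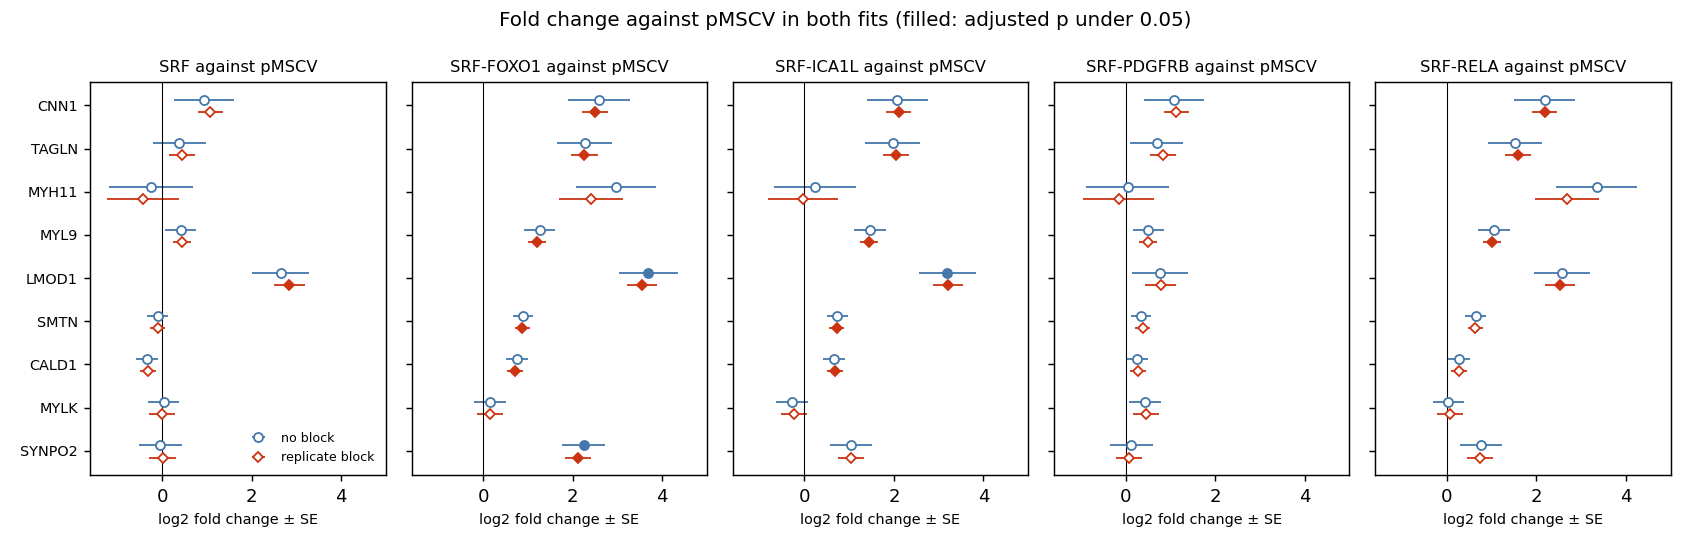
Log2 fold change against pMSCV (horizontal axes, with SE) of the 9 tested genes in each construct, without the block (blue circles) and with the replicate block (red diamonds); filled symbols have an edgeR adjusted p under 0.05. The SE is smaller with the block, MYH11 is the gene whose estimates differ most between the fits (3.35 and 2.70 in SRF-RELA), and LMOD1 is the 1 filled symbol in SRF.

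The fusions were then set against the SRF group, whose SRF CPM was above that of every fusion library. In the libraries labelled SRF-FOXO1 3 of 9 genes rose without the block (1.36% of all tested genes were called): SYNPO2 by 2.28 (edgeR adjusted p 0.0306, SE 0.48), CALD1 by 1.10 (adjusted p 0.0393, SE 0.25) and SMTN by 0.99 (adjusted p 0.0453, SE 0.23), on the log2 scale. Each was lost in 4 of 6 unblocked fits that left out 1 library. The largest adjusted p-values from edgeR were 0.150 (SYNPO2) and 0.204 (SMTN) without SRF replicate 1, and 0.171 (CALD1) without SRF-FOXO1 replicate 2. Each was also lost without SRF replicate 2 or SRF-FOXO1 replicate 3, and held without SRF replicate 3 or SRF-FOXO1 replicate 1. LMOD1, at 14.4 to 76.3 CPM against 20.4 to 24.1 CPM in SRF, overlapped and was not called (log2 fold change 1.04, edgeR adjusted p 0.448, SE 0.58).

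No gene of the 9 was called against SRF without the block in SRF-ICA1L (0.782% of all tested genes), SRF-PDGFRB (0.146%) or SRF-RELA (0.388%). At an unadjusted p under 0.05 they were 5 (11.8% of all genes), 2 (12% of all genes) and 3 (9.54%). By the DESeq2 Wald test they were 2 of 10 (2.03%), 0 of 9 (1.31%) and 1 of 10 (0.777%) contractile genes with an adjusted p. With the block 5 of 9 rose in SRF-ICA1L (CNN1, TAGLN, MYL9, SMTN and CALD1), where 4.73% of all genes were called. TAGLN had the largest of these log2 fold changes, 1.61 (edgeR adjusted p 0.00573, SE 0.29). CNN1 was lost in 5 of 6 fits that left out 1 library, at most to 0.161 without SRF-ICA1L replicate 3, and SMTN in 3 of 6, at most to 0.0816 without SRF replicate 2. In SRF-RELA 2 of 9 rose (1.73% of all genes): MYH11 by 3.12 (edgeR adjusted p 0.0479, SE 0.73) and SMTN by 0.74 (adjusted p 0.0382, SE 0.17), each lost in 5 of 6 such fits, at most to 0.250 without SRF replicate 2 and 0.201 without SRF-RELA replicate 2.

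LMOD1 was the 1 gene of the 9 called lower in a fusion than in SRF. In SRF-PDGFRB its 3 libraries, at 3.90 to 9.41 CPM, lay below the SRF libraries at 20.4 to 24.1 CPM, and with the block it fell by 2.06 on the log2 scale (edgeR adjusted p 0.00672, SE 0.33; 2.34% of all genes were called). The call held in each of the 6 fits that left out 1 library, with edgeR adjusted p-values up to 0.0463. Without the block the adjusted p from edgeR was 0.263.

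Among the fusions, no contractile gene was called without the block in any of the 6 pairs. The share of all tested genes called was 0.027% for the libraries labelled SRF-FOXO1 against SRF-ICA1L, 0.717% for SRF-FOXO1 against SRF-PDGFRB, 0.00539% for SRF-FOXO1 against SRF-RELA, 0.82% for SRF-ICA1L against SRF-PDGFRB, 0.0108% for SRF-ICA1L against SRF-RELA and 0.162% for SRF-PDGFRB against SRF-RELA. At an unadjusted p under 0.05 the counts in the same order were 2, 6, 1, 2, 1 and 2 of 9, against 6.06%, 14.8%, 10.4%, 11.7%, 3.06% and 3.87% of all genes. The DESeq2 Wald test called 0, 3, 0, 1, 0 and 1 contractile genes, of 10 with an adjusted p or, for SRF-ICA1L against SRF-PDGFRB, 9. Of all genes to which it gave an adjusted p, it called 0.374%, 2.06%, 0.0741%, 2.37%, 0.00987% and 0.514%.

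With the block, calls appeared in the 3 pairs that hold SRF-PDGFRB. CNN1, TAGLN, LMOD1 and SYNPO2 were higher in the libraries labelled SRF-FOXO1 than in SRF-PDGFRB (4 of 9; 4.32% of all genes), with log2 fold changes of 1.36 (SE 0.27), 1.42 (SE 0.29), 2.77 (SE 0.33) and 2.04 (SE 0.29). TAGLN, MYL9 and LMOD1 were higher in SRF-ICA1L than in SRF-PDGFRB (3 of 9; 4.76%), and LMOD1 was lower in SRF-PDGFRB than in SRF-RELA (1 of 9; 0.847%). The calls of LMOD1 in the first and second of these and of SYNPO2 held without each library. Those of CNN1 and TAGLN in the first, TAGLN and MYL9 in the second and LMOD1 in the last were lost in 2 to 5 of 6 fits, most strongly without SRF-PDGFRB replicate 2, with edgeR adjusted p-values of 0.0870, 0.0956, 0.145, 0.0883 and 0.125. No contractile gene was called between the libraries labelled SRF-FOXO1 and SRF-ICA1L (0.911% of all genes), SRF-FOXO1 and SRF-RELA (0.167%) or SRF-ICA1L and SRF-RELA (0.0162%).

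**Figure D3:**
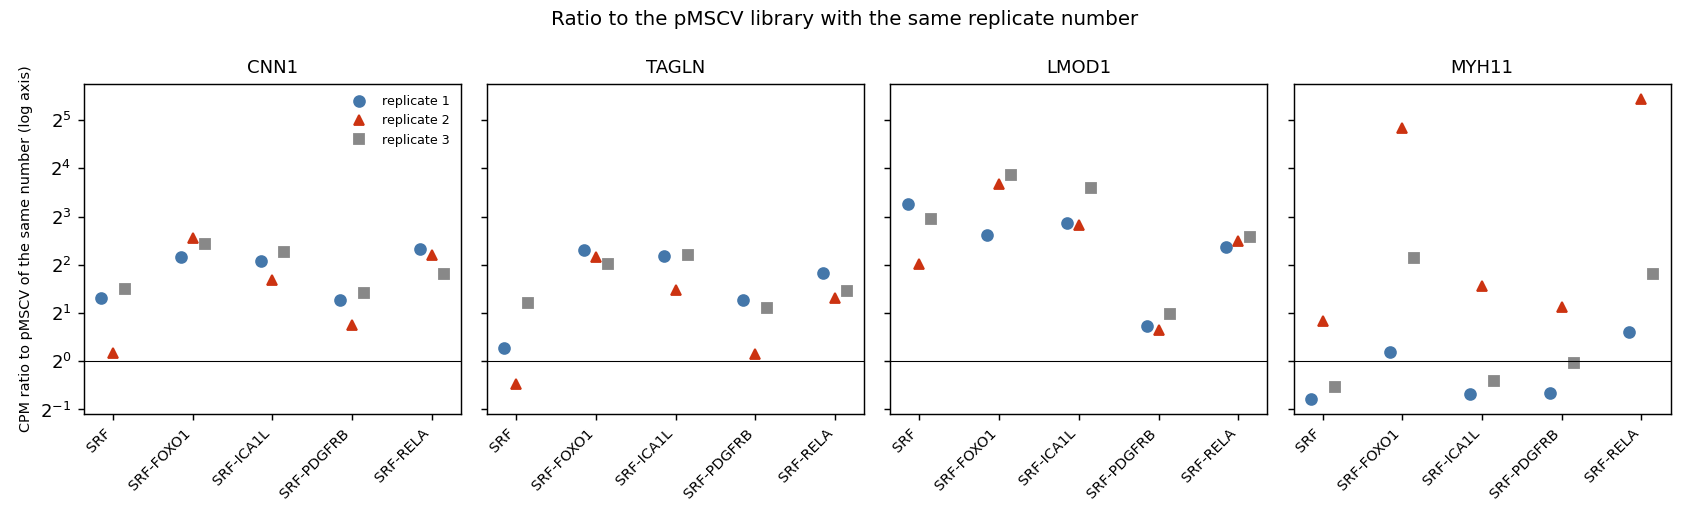
CPM in each construct divided by the pMSCV library with the same replicate number (vertical axis, log scale base 2) for CNN1, TAGLN, LMOD1 and MYH11. CNN1, TAGLN and LMOD1 lie between 2.49 and 14.6 times the vector in the libraries labelled SRF-FOXO1, in SRF-ICA1L and in SRF-RELA. MYH11 spreads from 1.14 to 43.6 in SRF-FOXO1 and SRF-RELA, where the pMSCV divisor of replicate 2 holds 12 counts.

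Most of these genes also differed by replicate number. A test of the number with group in the model called 7 of 9 genes, all but MYH11 (edgeR adjusted p 0.0521) and MYLK (adjusted p 0.109), where 24.7% of all tested genes were called. CNN1, TAGLN, MYL9 and CALD1 were lowest in replicate 1 in 6 of 6 groups. LMOD1 was highest in replicate 2 in 6 of 6 groups, and CNN1, MYL9 and CALD1 in 5 of 6. Across the 6 groups, the median CPM of TAGLN was 216 in replicate 1, 475 in replicate 2 and 368 in replicate 3.

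Other genes moved with the numbers. The summed level of 10 serum-induced immediate early genes was 1999 to 4316 CPM in replicate 1, 235 to 531 CPM in replicate 2 and 1411 to 2154 CPM in replicate 3. That of 6 proliferation genes was 179 to 419.8 CPM in replicate 1, 177 to 393 CPM in replicate 2 and 431 to 719 CPM in replicate 3. What a number marks is not given in the labels, and the part of these genes in the level of the contractile genes was not tested.

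Of the spread of log2 CPM of CNN1 over the 18 libraries, 56.7% lay between groups, 37.5% between replicate numbers and 5.85% in the rest. For LMOD1 these shares were 80.0%, 15.2% and 4.78%, and for MYLK 26.8%, 25.2% and 47.95%. The medians over all tested genes were 33.9%, 21.0% and 38.3%.

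**Figure D4:**
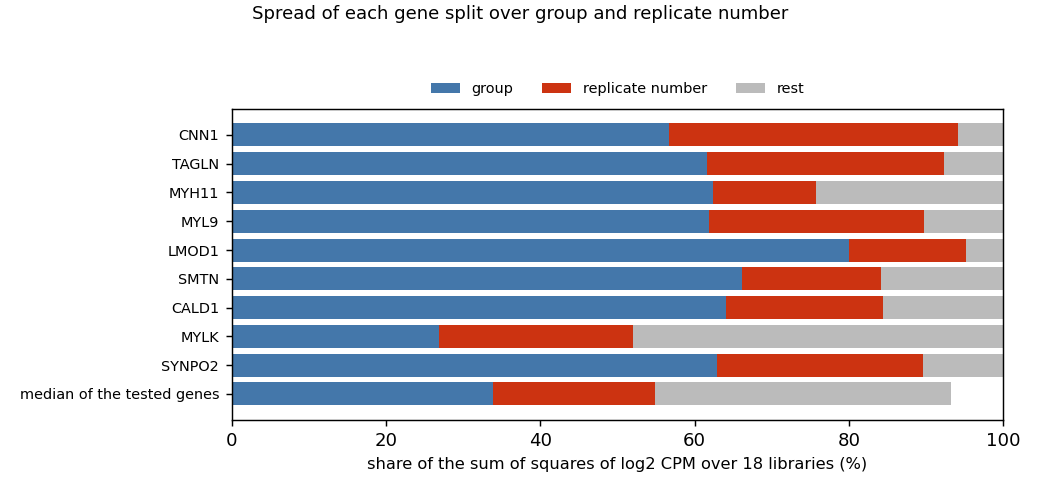
Share (%, horizontal axis) of the sum of squares of log2 CPM over the 18 libraries that lies between groups (blue), between replicate numbers (red) and in the rest (grey), for each of the 9 tested genes and as medians over all tested genes, which need not sum to 100. The group share is from 56.7% to 80.0% in 8 genes and 26.8% in MYLK.

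Levels of different genes were compared per kilobase of merged exons, which counts exons that a given transcript may lack. In pMSCV the order was CALD1 (81.5 CPM per kilobase), MYL9 (79.3), TAGLN (41.02), MYLK (15.2), SMTN (5.22), CNN1 (3.32), LMOD1 (0.919), SYNPO2 (0.218), MYH11 (0.0607) and DES (0.0247). In the libraries labelled SRF-FOXO1 TAGLN (182) and MYL9 (177) led CALD1 (128), and CNN1 (18.4) stood above MYLK (15.7), LMOD1 (10.8) and SMTN (9.07). The spread between libraries was as wide as the gaps between neighbours in that order, since TAGLN alone ranged from 359.5 to 1182 CPM there.

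The apparatus around these genes was described with 5 lists, whose choice was made with earlier results of these data known. Contractile partners (actins, tropomyosins and crosslinkers, 17 tested) had 4 genes called higher without the block in the libraries labelled SRF-FOXO1. The number was 2 in SRF-ICA1L, 1 in SRF-RELA and 0 in SRF and SRF-PDGFRB. Of all tested genes 0.874%, 0.458%, 0.183%, 0.0216% and 0.0324% were called higher in the same order. With the block the counts were 9, 7, 3, 0 and 0, and no partner was called lower. The block called 4.65%, 3.26%, 0.928%, 0.162% and 0.129% of all tested genes higher, and 442, 260, 8, 15 and 9 of the 18544 lower. The median log2 fold change of the partners without the block was 0.59, 0.55, 0.36, 0.06 and 0.20 in the same order. Over all tested genes it lay between -0.01 and 0.01, where the TMM scaling tends to set it. Enteric actin ACTG2 rose from 1.52, 7.61 and 11.4 CPM in pMSCV to 396, 590.3 and 485 CPM in those labelled SRF-FOXO1, a log2 fold change of 6.26 (edgeR adjusted p 0.00625, SE 0.89), and by 4.93 and 5.24 in SRF-ICA1L and SRF-RELA (adjusted p 0.0140 and 0.0243). These 3 fusion groups did not overlap pMSCV in ACTG2. Aortic actin ACTA2 rose by 3.53 (edgeR adjusted p 0.0187, SE 0.61) and the LIM protein CSRP1 by 1.67 (adjusted p 0.0296, SE 0.33) in the libraries labelled SRF-FOXO1.

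Among 17 tested genes that set the phosphorylation of the light chain, PPP1R12B, a targeting subunit of the myosin phosphatase, rose in the libraries labelled SRF-FOXO1 by 3.03 on the log2 scale (edgeR adjusted p 0.0393, SE 0.63). No gene of this list was called lower against pMSCV in either fit. Of the 18544 tested genes, at most 10 were called lower without the block and at most 442 with it, both in the libraries labelled SRF-FOXO1. Of 11 tested paralogs of the 10 genes that act in non-muscle or striated cells, 0 were called without the block in the 5 comparisons with pMSCV. With the block 2 were higher in the libraries labelled SRF-FOXO1 (CNN3 and MYLK2) and 1 in SRF-ICA1L (SYNPO). Of all tested genes the block called 4.65% and 3.26% higher in these groups. Without the block the median log2 fold change in the libraries labelled SRF-FOXO1 was 0.16 for the phosphorylation genes and 0.64 for the paralogs, and in SRF-ICA1L 0.14 and 0.49.

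Smooth muscle membrane, channel and receptor genes (21 tested) had 2 called higher in the libraries labelled SRF-FOXO1 without the block (angiotensin receptor AGTR1 and caveolar protein CAVIN1), 2 in SRF-ICA1L (PLN and AGTR1), 1 in SRF-RELA (PLN) and 0 in SRF and SRF-PDGFRB. With the block 8 in the libraries labelled SRF-FOXO1, 7 in SRF-ICA1L, 4 in SRF-RELA and 0 in the others were higher. Of all tested genes 0.874%, 0.458% and 0.183% were called higher in these 3 fusions without the block. With it 4.65%, 3.26% and 0.928% were. The median log2 fold changes in these 3 fusions, unblocked, were 0.57, 0.49 and 0.19. The potassium channel gene KCNMA1 was lower with the block in the libraries labelled SRF-FOXO1 and in SRF-ICA1L, the endothelin receptor EDNRA in SRF-ICA1L and RBPMS2 in SRF. Of the 18544 tested genes the block called 442 lower in the libraries labelled SRF-FOXO1, 260 in SRF-ICA1L and 15 in SRF. Phospholamban (PLN), which restrains the calcium pump of the sarcoplasmic reticulum, rose by 3.85 (edgeR adjusted p 0.00186, SE 0.50) in SRF-ICA1L and by 3.71 (adjusted p 0.00327, SE 0.50) in SRF-RELA, on the log2 scale.

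Of 12 tested genes for SRF and its cofactors, SRF itself was the 1 gene called in each of the 5 comparisons, in both fits. Myocardin (MYOCD), the cofactor tied most closely to smooth muscle, was at 0.106 to 1.28 CPM in pMSCV and at most 13.97 CPM, in replicate 2 of SRF-PDGFRB. It was not called in any of these comparisons in either fit. The log2 fold change of MYOCD was 3.05 (edgeR adjusted p 1.000, SE 1.34) in SRF-PDGFRB, in which no contractile gene was called against pMSCV. In SRF-RELA it was 2.62 (SE 1.33), with 11.1 CPM in replicate 2, and 4 contractile genes were called there with the block. The part of MYOCD in the level of the contractile genes was not tested.

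The genes nearest to CNN1 were sought among the 12751 tested genes whose mean log2 CPM reached 1, by the root mean square difference of log2 CPM centred on each gene's mean over the 18 libraries. TAGLN was at 0.327, closer than any gene outside the 10. Outside the 10 the nearest were ENSG00000279118 (0.401), JPH2 (0.412), which ties the surface membrane to calcium stores, CLIC3 (0.430), the pericyte proteoglycan CSPG4 (0.440) and the angiopoietin receptor TEK (0.463). MYL9 was at 0.564, SYNPO2 at 0.621, SMTN at 0.773, LMOD1 at 0.775, CALD1 at 0.822, MYH11 at 1.04 and MYLK at 1.22. Set among the 12751 genes, all outside the 10, these would rank 15, 31, 167, 170, 263, 1822 and 9974 in the same order. These distances are a description and share group and replicate number alike. TEK is also in the endothelial list, in which PECAM1 was at 4.31 to 27.96 CPM and CDH5, VWF and KDR at or below 3.26 CPM.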

How the data were processed

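Raw counts per Ensembl gene were deposited by the authors, with 1 column per library, per the file headers. Per the submitters' processing notes, FastQC 0.11.8, Trimmomatic 0.39, HISAT2, featureCounts from Subread 2.0.3 and build GRCh38 were used. The annotation release and the strand setting of the counting are not given in the sources used here. The mRNA libraries were made with a stranded kit, per the labels' protocols. Gene symbols matched 61369 of 61487 identifiers, and coordinates and exon lengths are those of GENCODE on GRCh38.

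Genes were filtered by filterByExpr (minimum count 10), which left 18544, and scaled by TMM. A quasi-likelihood model of edgeR 4.0.16 in R 4.3.3 took all 18 libraries with a coefficient for each group (12 residual degrees of freedom, common biological coefficient of variation 0.225). Tests were two-sided F tests, Benjamini-Hochberg adjusted over all tested genes. The SE is the absolute log2 fold change divided by the square root of F. CPM uses the library total. The script was tested on simulated data. A count of 0 is read as at most 3 counts, which covers counting error only.

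Replicate numbers pair libraries by their values, not by the labels. Deviations from the group means correlated over 0.1 in 44 of the 45 same-number pairs (median 0.375), and the 90 other pairs had a median of -0.180. The pair below it, replicate 1 of SRF and of SRF-FOXO1, was at 0.0875, so for that comparison and for the test over all groups the block is given only with the alternatives. The block leaves 10 residual degrees of freedom and a coefficient of variation of 0.150.

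The 10 genes and the lists were chosen with earlier results of these data known. Genes named besides the 10 are SRF, FOS, EGR1, ACTA2, ACTG2, MYOCD, called genes of the 5 lists and the 5 nearest to CNN1. Overlapping genes, FOXO1 and the marker genes were named after values were seen. Alternatives were the replicate block, DESeq2 1.42.0 size factors, total counts, no filter, the compared groups only, the DESeq2 Wald test (on all genes, with its own filter) and leaving out libraries. Leaving out libraries in the fit with the block was added after seeing the data. An item of the phosphorylation list is not reported here.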

Additional observations from a re-analysis of the deposited data

How the results depend on the processing

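The number of contractile genes called depended on the replicate block, the tool and the libraries kept. With the replicate block the counts rose from 0 to 1 in SRF, 2 to 7 in the libraries labelled SRF-FOXO1, 1 to 6 in SRF-ICA1L and 0 to 4 in SRF-RELA, all against pMSCV. Against SRF the block took them from 3 to 7 in the libraries labelled SRF-FOXO1. The share of all tested genes called rose there from 1.36% to 7.23%. These 7 were CNN1, TAGLN, MYH11, MYL9, SMTN, CALD1 and SYNPO2. The calls of MYH11 and MYL9 were lost in 5 and 3 of 6 blocked fits that left out 1 library, the other 5 in 0. Against SRF the counts also went from 0 to 5 in SRF-ICA1L, 0 to 1 in SRF-PDGFRB and 0 to 2 in SRF-RELA. Between fusions they went from 0 to 4 (SRF-FOXO1 and SRF-PDGFRB), 3 (SRF-ICA1L and SRF-PDGFRB) and 1 (SRF-PDGFRB and SRF-RELA). In the test over the 6 groups the count went from 3 to 8, and the share of all tested genes called from 1.67% to 8.77%. The block lost no call. Without the count filter or with the compared groups alone, the calls in the libraries labelled SRF-FOXO1 against pMSCV and SRF and in SRF-ICA1L against pMSCV fell to 0, as did the test over the 6 groups without the filter. The DESeq2 Wald test called 1 of 10 in SRF, 7 of 10 in SRF-FOXO1, 2 of 9 in SRF-ICA1L and 2 of 10 in SRF-RELA against pMSCV. In the same order it called 0.131%, 2.38%, 1.5% and 0.511% of all genes with an adjusted p. It also called 2 in SRF-ICA1L and 1 in SRF-RELA against SRF, and 3, 1 and 1 in the 3 fusion pairs above. Scaling by total counts called 1 between SRF-FOXO1 and SRF-PDGFRB. DESeq2 size factors changed no count by over 1.5 times. Leaving out libraries without the block gave 0 to 6 calls in SRF-FOXO1 and 0 to 1 in SRF-ICA1L against pMSCV, 0 to 4 in SRF-FOXO1 and 0 to 1 in SRF-ICA1L against SRF, 0 to 2 between SRF-FOXO1 and SRF-PDGFRB and 0 to 5 over the 6 groups. With the block it gave 0 to 2 in SRF, 0 to 1 in SRF-PDGFRB and 0 to 4 in SRF-RELA against pMSCV. Against SRF it gave 0 to 8 in SRF-FOXO1, 2 to 5 in SRF-ICA1L, 0 to 2 in SRF-PDGFRB and 0 to 3 in SRF-RELA. Between fusions it gave 0 to 1 (SRF-FOXO1 and SRF-ICA1L), 2 to 6 (SRF-FOXO1 and SRF-PDGFRB), 0 to 2 (SRF-FOXO1 and SRF-RELA), 0 to 3 (SRF-ICA1L and SRF-PDGFRB) and 0 to 1 (SRF-PDGFRB and SRF-RELA). These ranges include fits without all 6 libraries of 1 number, which leave 2 libraries a group. The sign was followed under each alternative for 41 log2 fold changes against pMSCV and SRF. These were the ones called in either fit or at least 1 in size without the block. None of the 41 changed sign, which that choice made likely beforehand. Smaller ones were not followed in this way. Near 0 the block turned the sign of MYH11 in SRF-ICA1L (0.24 to -0.03) and SRF-PDGFRB (0.05 to -0.16), both against pMSCV. It also turned that of SYNPO2 in SRF against pMSCV (-0.04 to 0.01). The cause of these differences was not tested. DES had too few counts to pass the filter, and was tested without the filter and by the DESeq2 Wald test.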
